A study of Mus musculus with 4 samples.

Results

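The genes described here are 7 genes of the extracellular matrix, namely the type IV collagen chains Col4a1, Col4a2, Col4a3 and Col4a4, the protease inhibitor Timp3, and the secreted glycoproteins Sparc and Fn1. They were taken by name from the UMI count tables of a Drop-seq study of mouse renal cortex, in which 21279 genes had at least 1 UMI, and members without a UMI were kept. The Akita group comprised 2 mice of the strain C57BL/6-Ins2Akita/J, whose dominant Ins2 mutation impairs insulin production and leads to diabetes, aged 116 and 119 days. The wild-type group comprised 2 mice aged 45 and 51 days. The labels also give 24 weeks of housing, which is longer than any of these ages, and 8 mice per group, against 2 libraries per group here. From each mouse 1 kidney was used, and its cortex was minced, sieved and digested with collagenase IV, an enzyme that cuts collagen, before capture. Drop-seq tags each captured mRNA with a cell barcode and a unique molecular identifier (UMI), so that values below count molecules. Age ran with genotype, so the effects of age and of Akita cannot be told apart.

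Type IV collagen is the network-forming collagen of basement membranes, the sheets on which epithelial cells rest. Its chains assemble as trimers. The α1 and α2 chains (Col4a1, Col4a2) occur in nearly all basement membranes, while the α3 and α4 chains (Col4a3, Col4a4) join the α5 chain in the glomerular and some tubular basement membranes, and their loss causes Alport syndrome. Timp3 encodes a matrix-bound inhibitor of metalloproteinases. Sparc encodes a collagen-binding matricellular protein, and Fn1 encodes fibronectin, an adhesive matrix glycoprotein.

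In the GENCODE annotation of GRCm38, Col4a1 (ENSMUSG00000031502, chr8:11198423-11312826, minus strand) and Col4a2 (ENSMUSG00000031503, chr8:11312805-11449287, plus strand) lie head to head, with annotated starts 21 bases apart and an overlap of 22 bases. Col4a3 (ENSMUSG00000079465, chr1:82586921-82722059, plus strand) and Col4a4 (ENSMUSG00000067158, chr1:82448423-82586849, minus strand) form a second such pair, with 72 bases between their starts. Timp3 (ENSMUSG00000020044, chr10:86300372-86349506, plus strand) lies wholly inside Syn3 on the opposite strand. Syn3 had 14 UMIs in the retained cells. The lncRNA C430014B12Rik, which overlaps Col4a3 on the opposite strand, had 18. Whether counting used the strand is not given in the sources used here. The overlaps are of whole gene spans, and overlap of exons was not checked. Whether reads of such genes could be told apart is therefore not known. This holds for the overlap of Col4a1 and Col4a2 as well. Sparc (ENSMUSG00000018593) is at chr11:55394500-55423183 and Fn1 (ENSMUSG00000026193) at chr1:71585520-71653200, both on the minus strand.

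RefSeq promoter windows, running from 250 bases before to 50 after the start on GRCm38.p6, were found for 5 of the 7 genes. The windows of Timp3, whose level differed between tubule segments, and of 1 gene of each head-to-head pair, whose partners are compared below, are given 5′ to 3′ on the strand of the gene. Capitals mark the GC box (GGGCGG or its reverse CCGCCC) and the CCAAT box (CCAAT or ATTGG), searched on both strands. None of the marked matches overlap.
Timp3 promoter, chr10:86300162-86300461, plus strand: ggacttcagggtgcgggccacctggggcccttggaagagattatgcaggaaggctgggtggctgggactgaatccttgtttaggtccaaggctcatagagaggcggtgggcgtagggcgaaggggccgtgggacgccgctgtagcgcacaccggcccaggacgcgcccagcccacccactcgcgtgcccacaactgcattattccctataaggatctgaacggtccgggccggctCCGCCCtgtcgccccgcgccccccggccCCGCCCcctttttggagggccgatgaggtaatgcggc
Col4a2 promoter, chr8:11312555-11312854, plus strand: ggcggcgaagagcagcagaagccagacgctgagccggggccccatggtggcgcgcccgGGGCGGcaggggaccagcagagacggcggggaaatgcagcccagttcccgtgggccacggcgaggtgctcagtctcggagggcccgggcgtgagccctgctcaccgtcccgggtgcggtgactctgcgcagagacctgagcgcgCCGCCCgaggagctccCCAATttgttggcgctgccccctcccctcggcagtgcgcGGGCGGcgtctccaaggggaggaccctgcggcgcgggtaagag
Col4a4 promoter, chr1:82586800-82587099, minus strand: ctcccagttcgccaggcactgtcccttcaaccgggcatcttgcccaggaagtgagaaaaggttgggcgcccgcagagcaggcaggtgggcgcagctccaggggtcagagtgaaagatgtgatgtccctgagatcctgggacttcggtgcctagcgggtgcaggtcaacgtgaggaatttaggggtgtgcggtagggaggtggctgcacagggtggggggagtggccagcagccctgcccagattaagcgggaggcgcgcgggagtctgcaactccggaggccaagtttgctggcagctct
The Timp3 window held 2 GC boxes, the Col4a2 window 3 GC boxes and 1 CCAAT box, and the Col4a4 window neither motif. A TATA box (TATAAA or TTTATA) was in none of these 3 windows. Of 27025 promoters of the same length, 35.9% held a GC box, 37.9% a CCAAT box and 14.2% a TATA box. The Col4a1 and Col4a2 windows share 78 bases.

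The retained cells, barcodes with at least 200 detected genes and at most 50% mitochondrial UMIs, numbered 311 and 600 for Akita, against 564 and 441 for wild type, with 557780 to 812747 UMIs per library. Of these 1916 barcodes, 407 differed by 1 base from another of their file. Ins2, the gene mutated in Akita mice, had 0 UMIs in all 4 libraries and could not be used to check the genotype. Between Akita replicate 2 and Wild-type replicate 1, 884 barcodes were shared, against 3 or 4 for every other pair. Among retained cells, 73.0% of Akita replicate 2 and 80.5% of Wild-type replicate 1 had such a barcode. Results are therefore also given with each shared barcode assigned to 1 file only, the one holding the larger share of UMIs for it relative to depth. Classes of cells were named from marker genes with the 7 matrix genes left out of the clustering. There were 1457 proximal tubule-like, 149 loop of Henle-like, 128 distal convoluted tubule-like, 66 connecting tubule-like and 111 intercalated-like cells, and 5 unnamed. The loop of Henle-like, distal convoluted tubule-like and connecting tubule-like classes shared markers and were not cleanly separated. Slc12a3, the distal convoluted tubule's salt transporter gene, had 4980 CPM in the loop of Henle-like class, above the 3046 CPM of the loop marker Umod, and 2617 CPM in the connecting tubule-like class, whose cluster held 3 markers of each of the connecting and distal convoluted tubule. Podocyte-like, endothelial-like or mesangial-like clusters, the cells best known for much of this matrix, were not found.

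Levels are given as CPM, the UMIs of a gene scaled to 1000000 UMIs of the same cells. In the retained cells of the Akita libraries Timp3 had 344 and 295 CPM, against 290 and 338 CPM in wild type. Col4a4 had 177 and 173 CPM in Akita, against 181 and 149 CPM in wild type. Col4a3 had 156 and 154 CPM in Akita, against 135 and 111 CPM in wild type. The genotypes overlapped for Timp3 and Col4a4. For Col4a3, and for Col4a1 below, both Akita libraries lay above both wild-type libraries, as for 12.6% of all genes tested. Col4a2 had 41.2 and 68.8 CPM in Akita, against 65.2 and 52.6 CPM in wild type. Col4a1 had 43.0 and 46.3 CPM in Akita, against 40.6 and 41.2 CPM in wild type. The Akita mean of Timp3 was 320 ± 34.7 CPM, against 314 ± 33.7 CPM for wild type, and that of Col4a3 was 155 ± 1.74 CPM, against 123 ± 17.4 CPM for wild type (SD, n = 2 each). The Poisson intervals of the 4 libraries overlapped for each of these 5 genes. Over all retained cells there were 889 UMIs of Timp3, 482 of Col4a4, 391 of Col4a3, 165 of Col4a2 and 121 of Col4a1.

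**Figure D1:**
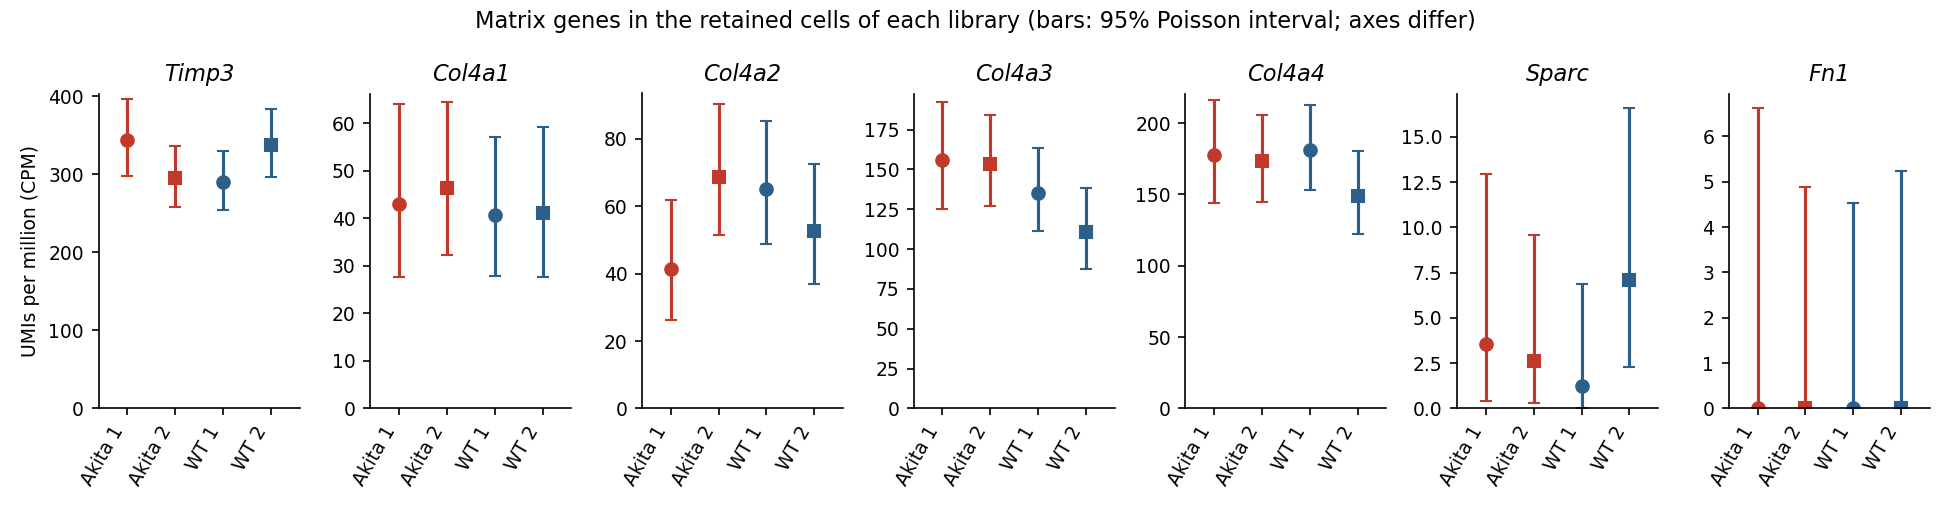
CPM of the 7 matrix genes in the retained cells of each library (points) with exact 95% Poisson intervals (bars, counting error only), Akita in red and wild type (WT) in blue, each panel with its own axis from 0. Col4a3 is at 156 and 154 CPM in Akita mice, against 135 and 111 CPM in wild-type mice, with overlapping intervals, and Fn1 is at 0 in all 4.

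The remaining pair of genes was near or under the limit of detection. Sparc had 2 and 2 UMIs in Akita mice, against 1 and 5 in wild-type mice, 10 UMIs or 3.53 CPM in all. Of these, 9 were in proximal tubule-like cells (4.08 CPM) and 1 in distal convoluted tubule-like cells (6.35 CPM). The proximal tubule-like cells held 2205542 of the 2830121 UMIs of the retained cells, so the 9 UMIs do not mark Sparc as proximal. Fn1 had 0 UMIs among the 2830121 UMIs of the retained cells, which allows a level of up to 1.06 CPM. Among all 7982 listed barcodes Fn1 had 2 UMIs, 1 in Akita replicate 2 and 1 in Wild-type replicate 2. Markers of the cells that make much of the kidney's Sparc and fibronectin were low too. Of 9 markers of mesangial cells, pericytes or fibroblasts, 7 were detected, Lum and Itga8 were at 0, and their summed level was 33.1 to 43.0 CPM in Akita mice, and 18.5 to 35.7 CPM in the wild-type mice. Of 11 endothelial markers, 5 were detected, with 5.38 to 9.26 CPM in Akita mice, and 2.46 to 7.10 CPM in the wild-type mice, and Pecam1, Kdr, Emcn, Cdh5, Tie1 and Cldn5 were at 0. Fewer cells of a type and less RNA per cell cannot be told apart in these summed values.

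Which tubule segment carried each gene was asked by comparing classes within libraries. Pooled over libraries, Timp3 had a lower level in every other class than in proximal tubule-like cells, and the difference passed the test in the loop of Henle-like, distal convoluted tubule-like and intercalated-like cells. It had 116 CPM in loop of Henle-like, 127 CPM in distal convoluted tubule-like, 181 CPM in connecting tubule-like and 41.3 CPM in intercalated-like cells, against 371 CPM in proximal tubule-like cells. By library, the connecting tubule-like cells had 1515 and 106 CPM in Akita, and 88.3 and 119 CPM in the wild-type mice. The first value came from 4 UMIs in 4 cells, and with it the mean of the 4 libraries was 457 CPM, against 372 CPM in proximal tubule-like cells. In the order of the pooled levels, the ranges over libraries of neighbouring classes overlapped. They were 25.1 to 67.9 CPM in intercalated-like, 38.9 to 312 CPM in loop of Henle-like, 80.6 to 226 CPM in distal convoluted tubule-like, 88.3 to 1515 CPM in connecting tubule-like and 344 to 414 CPM in proximal tubule-like cells. Differences among the 4 classes outside the proximal tubule were not tested. At least 1 Timp3 UMI was found in 14.1%, 14.1%, 10.6% and 4.5% of the cells of these 4 classes, against 31.9% of proximal tubule-like cells. Their median depths were 720, 1034.5, 652.5 and 782 UMIs, against 786 UMIs in proximal tubule-like cells.

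By library, the loop of Henle-like cells had 312 and 68.6 CPM of Timp3 in Akita and 43.9 and 38.9 CPM in wild type. The proximal tubule-like cells had 362 and 367 CPM in Akita, and 344 and 414 CPM in the wild-type mice. Akita replicate 1 alone came near the proximal range, with 23 Timp3 UMIs in 10 of 22 cells. Its loop of Henle-like cells had 6800 CPM of Kap and 190 CPM of Lrp2, both proximal tubule genes, against 4703 and 178 CPM in Akita replicate 2, 4268 and 219 CPM in Wild-type replicate 1, and 9906 and 272 CPM in Wild-type replicate 2. These cells of Akita replicate 1 also had more Slc12a3, at 7356 CPM, against 3949, 4064 and 4499 CPM in the same order of libraries. Their median depth was 997 UMIs, against 622, 720 and 645 UMIs. Loop of Henle-like against proximal tubule-like cells, the log2 fold change of Timp3 was −1.80 ± 0.30 (SE, edgeR quasi-likelihood test, adjusted p = 1.03e-05). It was −3.03 ± 0.25 without Akita replicate 1 and −1.76 ± 0.32 with each shared barcode in 1 file. In distal convoluted tubule-like cells, with 226 and 106 CPM in Akita, and 80.6 and 145 CPM in the wild-type mice, the log2 fold change was −1.68 ± 0.38 (edgeR adjusted p = 0.000518). This call was lost when cells were clustered more coarsely (Leiden resolution 0.5), at −0.86 ± 0.39 (edgeR adjusted p = 0.0775). Of all genes tested, 57.3% were called in the loop of Henle-like comparison and 55.6% in the distal convoluted tubule-like comparison, so a difference between segments was not unusual. Genes called lower were 29.6% and 29.5% of all. Of the 3 matrix genes tested in each, 2 were called in the first, both lower, and 1 in the second. With each shared barcode in 1 file, 51.8% of genes were called in the loop of Henle-like comparison.

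In intercalated-like cells Timp3 had 1 UMI each in Akita replicates 1 and 2, and 2 UMIs and 1 UMI in Wild-type replicates 1 and 2. The log2 fold change against proximal tubule-like cells was −3.37 ± 0.51 (edgeR adjusted p = 1.19e-07), in a fit added after the class sizes were known, where 53% of genes were called and 28.2% were called lower. With so few UMIs here, Timp3 passed the filter on low counts through other classes, chiefly the proximal tubule-like one. The call therefore rests on its high level there. Under the alternatives run the log2 fold change lay between −4.04 and −3.07. In connecting tubule-like cells the log2 fold change of Timp3 was −1.16 ± 0.51 (edgeR adjusted p = 0.0646) and did not pass, where 41.4% of genes were called. It passed there without Akita replicate 1, whose class sum of 4 cells held 4 Timp3 UMIs, at −1.87 ± 0.42 (edgeR adjusted p = 0.00125). The libraries left then include Akita replicate 2 and Wild-type replicate 1, which share barcodes and are not independent. With each shared barcode in 1 file Timp3 did not pass there, at −0.94 ± 0.54 (edgeR adjusted p = 0.188). In intercalated-like cells the ratio of the Timp3 level to its proximal level was 0.111 (95% interval 0.0361 to 0.261). For proximal genes that these cells should lack, it was 0.156 (0.145 to 0.168) for Kap and 0.0788 (0.0467 to 0.125) for Lrp2. Both ratios lay within the Timp3 interval, so Timp3 could not be told apart from such genes here. The source of these UMIs was not tested. In loop of Henle-like, distal convoluted tubule-like and connecting tubule-like cells Kap was at 15.8%, 12.2% and 17.3% of its proximal level. In the same order, Lrp2 was at 11.4%, 10.1% and 8.54%, and Timp3 at 31.4%, 34.2% and 48.9%. The 95% intervals of the Timp3 ratios were 0.216 to 0.442, 0.208 to 0.532 and 0.223 to 0.932. Akita replicate 1 held 23 of the 34 Timp3 UMIs in loop of Henle-like and 4 of the 9 in connecting tubule-like cells. Whether Timp3 stood above Kap and Lrp2 there was not tested.

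**Figure D2:**
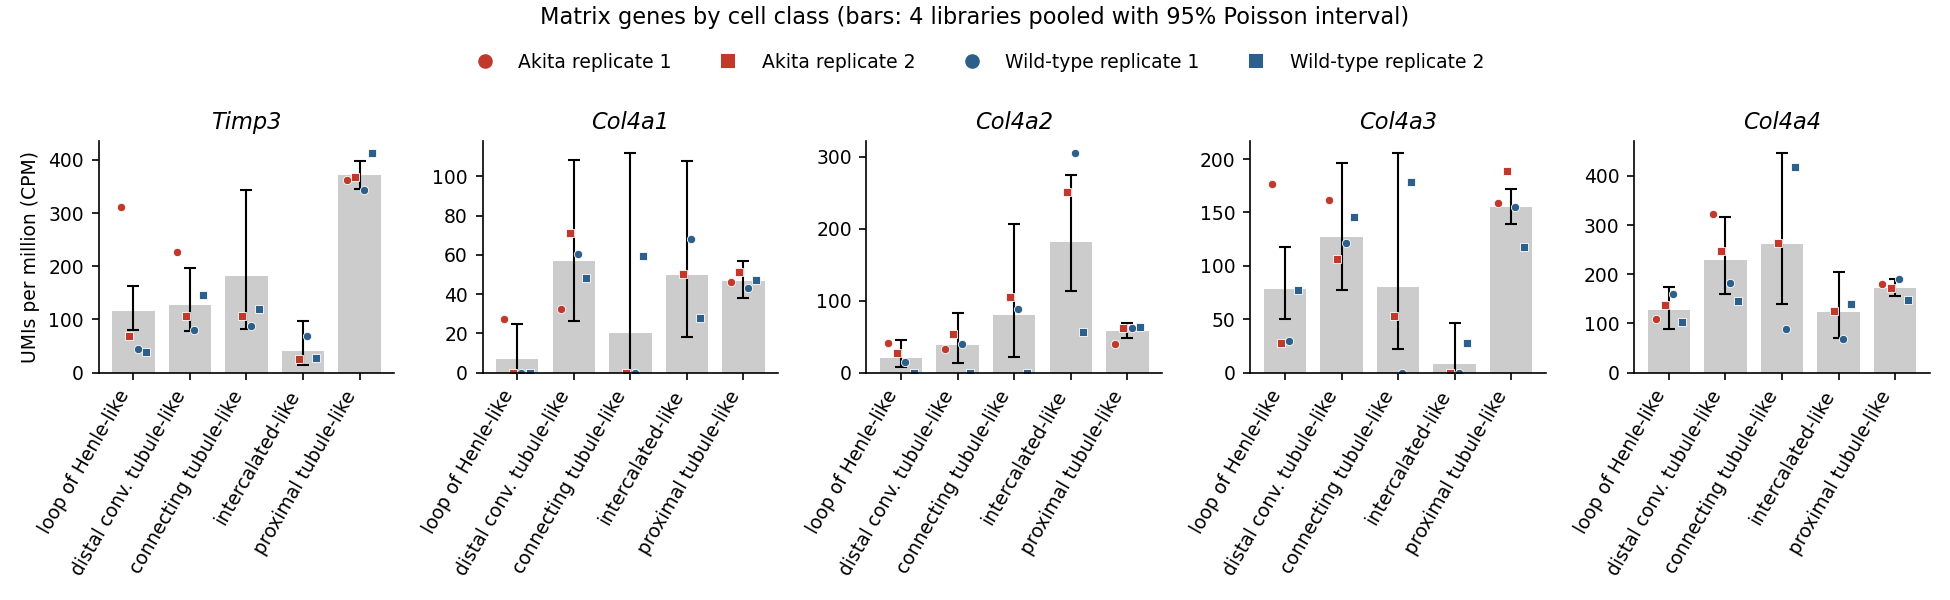
CPM by cell class, pooled over 4 libraries (grey bars, with exact 95% Poisson intervals), with points for libraries that have at least 10 cells of the class, Akita in red and wild type in blue (Timp3 in connecting tubule-like cells of Akita replicate 1, at 1515 CPM, is among the smaller sums not drawn). Timp3 stands at 371 CPM in proximal tubule-like cells and at 41.3 CPM in intercalated-like cells, where Col4a2 stands at 182 CPM on the strength of Akita replicate 2 and Wild-type replicate 1.

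The α3 and α4 chains were measured in the proximal tubule-like cells and in each of the distal classes. Pooled, Col4a3 had 78.7 CPM in loop of Henle-like, 127 CPM in distal convoluted tubule-like, 80.5 CPM in connecting tubule-like and 8.26 CPM (1 UMI) in intercalated-like cells, against 155 CPM in proximal tubule-like cells. Col4a4 had 127, 228, 262 and 124 CPM in the same 4 classes, against 173 CPM in proximal tubule-like cells. The order of the classes thus differed between these head-to-head partners, but the Poisson intervals of all 5 classes overlapped for Col4a4, from 69.4 to 204 CPM in intercalated-like to 139 to 448 CPM in connecting tubule-like cells.

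Col4a3 was lower in loop of Henle-like than in proximal tubule-like cells, with 176 and 27.4 CPM in Akita, and 29.2 and 77.8 CPM in the wild-type mice, against 159 and 189 CPM in Akita, and 155 and 118 CPM in the wild-type mice. The log2 fold change was −1.10 ± 0.35 (edgeR adjusted p = 0.00794). The call was lost without Akita replicate 2 (−0.74 ± 0.39, edgeR adjusted p = 0.0970), without Wild-type replicate 1 (−0.83 ± 0.40, edgeR adjusted p = 0.0841) and without the shared barcodes (−0.51 ± 0.44, edgeR adjusted p = 0.468). With each shared barcode in 1 file it was −0.92 ± 0.39 (edgeR adjusted p = 0.0416), and under the opposite assignment the call was lost (−0.88 ± 0.40, edgeR adjusted p = 0.0671). In distal convoluted tubule-like cells the log2 fold change of Col4a3 was −0.47 ± 0.39 (edgeR adjusted p = 0.317). For Col4a4 it was −0.55 ± 0.25 in loop of Henle-like cells (edgeR adjusted p = 0.0603), 0.21 ± 0.27 in distal convoluted tubule-like (adjusted p = 0.535), 0.44 ± 0.46 in connecting tubule-like (adjusted p = 0.490) and −0.72 ± 0.39 in intercalated-like cells (adjusted p = 0.116). None of these passed the threshold of 0.05. Col4a3 fell under the filter on low counts in the intercalated-like and connecting tubule-like comparisons. Podocytes are the best known source of both chains. Of 10 podocyte markers 8 were detected, Clic3 and Ptpro were at 0, and their summed level was 14.3 and 14.6 CPM in Akita, and 13.5 and 24.1 CPM in the wild-type mice. Their part in the levels of the chains was not tested.

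The α1 and α2 chains had few UMIs outside the proximal tubule-like cells, where Col4a1 had 46.7 CPM and Col4a2 57.6 CPM. Col4a2 had 20.5 CPM in loop of Henle-like, 38.1 CPM in distal convoluted tubule-like, 80.5 CPM in connecting tubule-like and 182 CPM in intercalated-like cells. Col4a1 had 6.85, 57.1, 20.1 and 49.6 CPM in these 4 classes. Col4a2 was called higher in intercalated-like than in proximal tubule-like cells, where 24.8% of all genes were called higher. It passed the filter on low counts there through the libraries in which it was high, and was under the filter in the loop of Henle-like and distal convoluted tubule-like comparisons, so this call gives little support. In intercalated-like cells it had 62.3 and 251 CPM in Akita, and 306 and 56.0 CPM in the wild-type mice, against 39.2 and 61.8 CPM in Akita, and 61.4 and 63.3 CPM in the wild-type mice in proximal tubule-like cells. Only Akita replicate 2 (10 UMIs) and Wild-type replicate 1 (9 UMIs), the libraries with shared barcodes, stood above the proximal range, while the other two had 1 and 2 UMIs. The log2 fold change was 1.32 ± 0.44 (edgeR adjusted p = 0.010). It was 1.24 ± 0.57 with DESeq2 (adjusted p = 0.0563) and 0.68 ± 0.39 with no filter on low counts (edgeR adjusted p = 0.343), where 11.1% of genes were called. With each such barcode in 1 file, 1 of 30 intercalated-like cells remained in Wild-type replicate 1, Col4a2 had 253 CPM in Akita replicate 2, and it fell under the filter and was not tested. Without Akita replicate 1, Akita replicate 2 or Wild-type replicate 1 it fell under the filter as well, and without Wild-type replicate 2 it was 1.71 ± 0.42 (edgeR adjusted p = 0.000765). Col4a1, its head-to-head partner, had 6 UMIs in intercalated-like cells (49.6 CPM), against 103 UMIs in proximal tubule-like cells (46.7 CPM). The difference between the partners was not tested.

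With no filter on low counts, Col4a1 and Col4a2 were lower in loop of Henle-like cells too. The log2 fold change was −3.07 ± 0.71 for Col4a1 (edgeR adjusted p = 0.000262) and −1.85 ± 0.52 for Col4a2 (edgeR adjusted p = 0.00479), where 12% of 19849 genes were called and the median over all of them was −0.80. These rest on 2 and 6 UMIs, against 103 and 127 UMIs in proximal tubule-like cells. The ratio of the Col4a1 level to its proximal level was 0.147 (95% interval 0.0175 to 0.543), against 0.158 for Kap and 0.114 for Lrp2 in these cells.

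The proximal tubule-like cells fell into 6 clusters, in which Timp3 and Col4a4 behaved differently. No cluster could be named as a segment of the proximal tubule, since none had 3 markers of 1 segment. Pooled Timp3 levels were between 279 and 429 CPM in the 6 clusters. Median depth was 3150 UMIs in cluster 3, against 568 to 922.5 UMIs in the other clusters. Cluster 3 held 1288827 of the 2205542 UMIs of the proximal tubule-like cells and 494 of their 818 Timp3 UMIs. Levels pooled over these cells therefore weigh that cluster most. Col4a4 had 490 CPM in cluster 5 (137 cells, led by Snhg11 and Slc5a12, a lactate transporter) and 393 CPM in cluster 7 (88 cells, led by Hnrnpdl), against 72.9 to 179 CPM in the other 4 clusters. By library, cluster 5 had 495 and 648 CPM of Col4a4 in Akita and 509 and 240 CPM in wild type. These values were above those of clusters 0, 1, 3 and 4 in each of the 4 libraries. Akita replicate 2 and Wild-type replicate 1 share barcodes, however, and are not independent. In Wild-type replicate 2 the value came from 5 UMIs (interval 77.9 to 560 CPM), overlapping that of cluster 3 (123 to 209 CPM). Cluster 7 had 146 and 442 CPM in Akita, and 425 and 344 CPM in the wild-type mice, the first from 1 UMI. Col4a3 had 206 CPM in cluster 5 and 176 CPM in cluster 7, against 180 CPM in cluster 3 and 61.5 to 118 CPM in clusters 0, 1 and 4. Malat1, a long non-coding RNA held in the nucleus, was also highest in clusters 5 and 7, at 51738 and 57742 CPM, against 3387 to 21375 CPM in the other clusters. Among those others its order differed from that of Col4a4. Cluster 3 had 21375 CPM of Malat1 and 140 CPM of Col4a4, against 6403 and 179 CPM in cluster 0. The part of Malat1 in the Col4a4 levels was not tested. Malat1 itself was among the leading genes of cluster 7. Only the 7 matrix genes and mitochondrial genes were kept out of the clustering, so the Malat1 levels may not be independent of how the clusters formed. Since cells of 1 library are not replicates, no test was made between clusters.

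**Figure D3:**
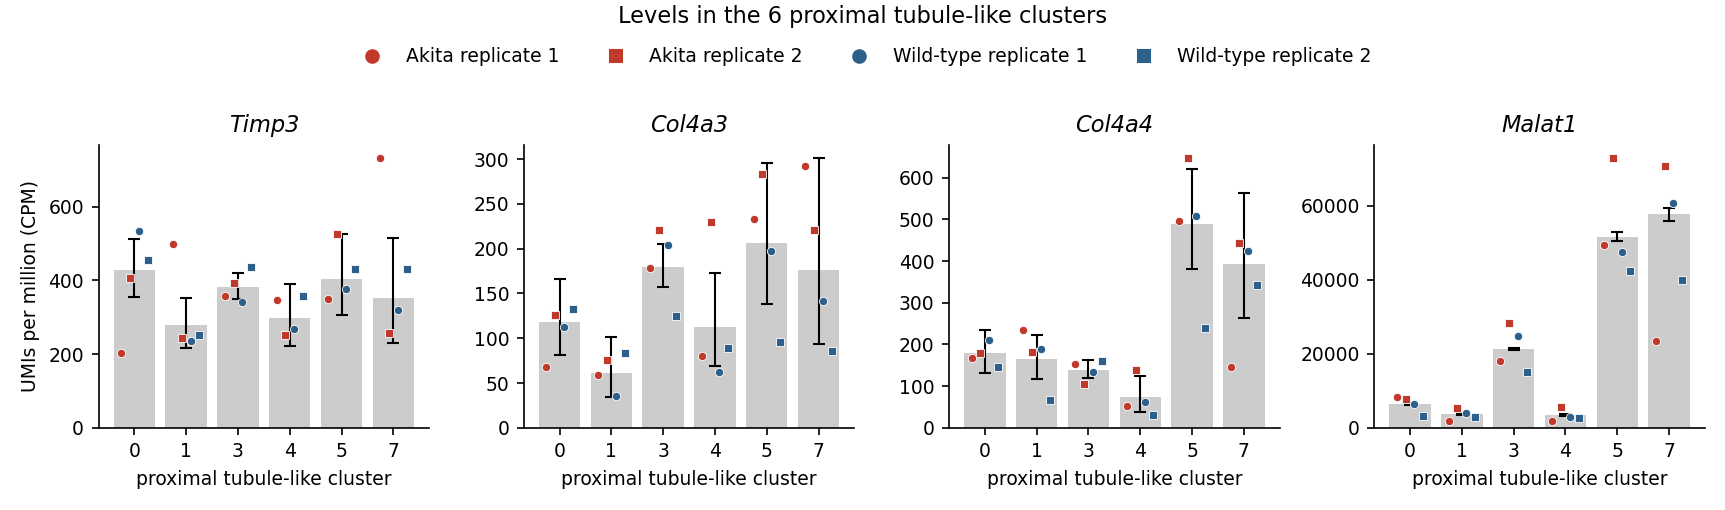
CPM of Timp3, Col4a3, Col4a4 and Malat1 in the 6 proximal tubule-like clusters, pooled over 4 libraries (grey bars, with exact 95% Poisson intervals), with points for libraries that have at least 10 cells in the cluster, Akita in red and wild type in blue. Col4a4 is highest in clusters 5 (490 CPM) and 7 (393 CPM), as is Malat1, while pooled Timp3 lies between 279 and 429 CPM.

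The genes whose levels over the 12 sums of 3 classes and 4 libraries were most like those of Timp3, by Pearson's r of log2(CPM + 10) over genes of at least 50 CPM, were the lipoprotein receptor gene Vldlr (r = 0.96), Aldh7a1 (0.93), H6pd (0.92), Far1 (0.91) and Aldh3a2 (0.90). For Col4a4 they were Arid4a (0.85), Mrpl36 (0.82), Zfp326 (0.82), Malat1 (0.81) and Srek1 (0.80). The genes most like Col4a3 were H2-T22 (0.92), Rae1 (0.89), Baz1b (0.88), Rasa2 (0.88) and Mtpn (0.87), those most like Col4a2 were Glb1 (0.90), Glrx5 (0.89), P4hb (0.89), Sept11 (0.89) and Evi5 (0.88), and those most like Col4a1 were Ap2a2 (0.92), Ecsit (0.90), Ssb (0.90), Anapc5 (0.89) and Prss8 (0.89). The sums share libraries and classes, so these values describe likeness only. They are the highest among 2809 or 2810 genes compared. Over the 4 libraries Col4a1 had 2 UMIs in loop of Henle-like and 9 in distal convoluted tubule-like cells, and Col4a2 had 6 in each. Counting error therefore weighs heavily on the values of these 2 genes.

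Whether the matrix genes differed in diabetes was asked by comparing Akita with wild type. None of the 5 genes that passed the filter on low counts, out of 7, was called as different over all retained cells. With 2 libraries a group, this does not show that their levels were equal. The log2 fold change was 0.02 ± 0.20 for Timp3, 0.13 ± 0.32 for Col4a1, −0.07 ± 0.32 for Col4a2, 0.32 ± 0.23 for Col4a3 and 0.08 ± 0.22 for Col4a4 (SE, edgeR, adjusted p = 1.00 each). Their median was 0.08, against 0.00 over all genes tested. Of 7169 genes 0 were called (0%), and 68 had an unadjusted p under 0.05, so a share of 0 among the matrix genes was that of the background. The libraries did not overlap, with Akita higher, for Col4a1 and Col4a3, as for 12.6% of all genes tested.

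In proximal tubule-like cells alone, Timp3 had 362 and 367 CPM in Akita, against 344 and 414 CPM in wild type (log2 fold change −0.06 ± 0.22). Col4a3 had 159 and 189 CPM in Akita, against 155 and 118 CPM in wild type (0.35 ± 0.26). Both Akita libraries were again above both wild-type libraries, as for 11.9% of all genes. Col4a4 had 180 and 171 CPM in Akita, against 190 and 148 CPM in wild type (0.04 ± 0.24). Col4a1 (0.12 ± 0.34) and Col4a2 (−0.28 ± 0.34) did not pass either, with adjusted p = 1.00 by edgeR for all 5 and 0 of 6117 genes called (0%; 62 at an unadjusted p under 0.05). With each shared barcode in 1 file, the log2 fold change over all retained cells was 0.23 ± 0.24 for Timp3, 0.59 ± 0.39 for Col4a1, 0.20 ± 0.39 for Col4a2, 0.35 ± 0.27 for Col4a3 and 0.27 ± 0.25 for Col4a4. All 5 were then positive, none was called by edgeR (adjusted p = 0.999 each), and 0 of 6306 genes were called. Under the opposite assignment of shared barcodes, Timp3, Col4a1 and Col4a4 were negative instead.

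**Figure D4:**
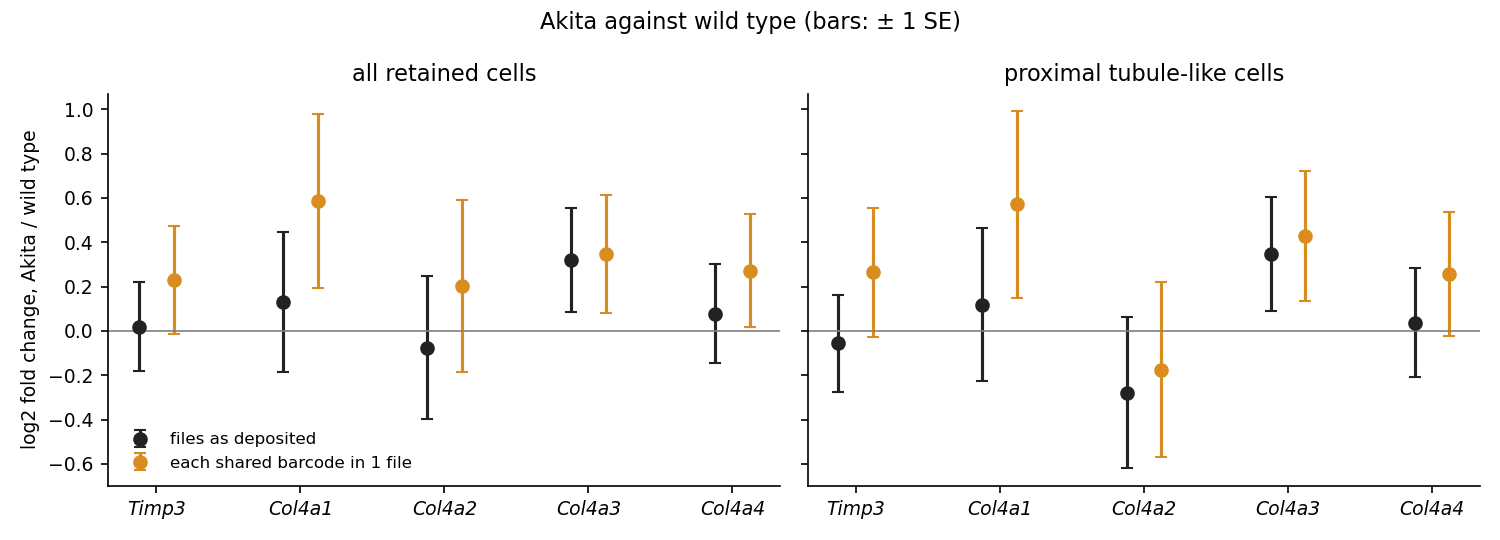
Log2 fold change of Akita over wild type (points, ± 1 SE) for the 5 matrix genes tested, over all retained cells and in proximal tubule-like cells, with the files as deposited (black) and after assigning shared barcodes to 1 file (orange). None passed the test, and Col4a3 is at 0.32 ± 0.23 over all retained cells and at 0.35 ± 0.26 in proximal tubule-like cells.

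In loop of Henle-like cells Col4a4 alone passed the filter, with 109 and 137 CPM in Akita, against 161 and 104 CPM in wild type (log2 fold change −0.09 ± 0.69, edgeR adjusted p = 1.00). Of 1090 genes tested there, 0 were called (0%; 21 at an unadjusted p under 0.05). Timp3, at 312 and 68.6 CPM in Akita, and 43.9 and 38.9 CPM in the wild-type mice, did not overlap between genotypes, as did 11.6% of the genes tested with Akita higher, but fell under the filter. The genotype effect on Timp3 was larger in loop of Henle-like than in proximal tubule-like cells by a log2 of 2.22 ± 0.70. This had an unadjusted p of 0.00325 and did not pass after adjustment over 1778 genes (edgeR adjusted p = 1.00). Of these, 0 were called and 19 had an unadjusted p under 0.05. It rested on Akita replicate 1, without which the difference was 0.83 ± 0.97. Without Akita replicate 2 it was 2.99 ± 0.71 (edgeR adjusted p = 0.0532). For Col4a3 the difference of effects was 0.50 ± 0.82 and for Col4a4 −0.14 ± 0.57, both with adjusted p = 1.00 by edgeR.

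Other genes of matrix assembly and turnover did not pass between genotypes either. Between Akita and wild type over all retained cells, 0 genes were called among 5 tested of 18 other basement membrane components, 5 of 22 proteases and inhibitors, 8 of 18 collagen folding and cross-linking genes, 10 of 19 matrix receptors, 4 of 18 TGF-beta pathway genes and 1 of 18 interstitial matrix genes. The medians of their log2 fold changes were 0.46, 0.20, −0.10, 0.07, 0.10 and −0.13. Among the genes with the most UMIs, the laminin chain Lamb1 was at 0.22 ± 0.30 and the laminin chain Lama5 at −0.30 ± 0.36. The heparan sulphate proteoglycan gene Agrn was at 0.51 ± 0.39. The brush border metalloproteinase genes Mep1a and Mep1b were at 0.20 ± 0.20 and 0.50 ± 0.63, and the secreted protease gene Adamts1 at 0.19 ± 0.33. For P4hb, a subunit of the enzyme that hydroxylates collagen, the value was −0.24 ± 0.25. Mia3, which serves the export of collagen, was at 0.03 ± 0.28 and the prolyl isomerase gene Ppib at 0.15 ± 0.32. The receptor genes Sdc4, Itgb1 and Itgb6 were at 0.03 ± 0.21, 0.04 ± 0.27 and 0.10 ± 0.27. Of the TGF-beta pathway, Tgfbr1 was at −0.24 ± 0.42, Smad2 at 0.54 ± 0.48 and Skil at −0.00 ± 0.47. Spp1, which encodes osteopontin, was at −0.13 ± 0.24. Of the interstitial list Col5a2 (39 UMIs) and Thbs1 (18 UMIs) fell under the filter.

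Across segments, by contrast, 6 of the 7 tested genes of these lists were called in loop of Henle-like cells and all 7 in distal convoluted tubule-like cells, where 57.3% and 55.6% of all genes were. In loop of Henle-like against proximal tubule-like cells, Lamb1 (log2 fold change 1.78 ± 0.30), Sdc4 (2.14 ± 0.14), the integrin gene Itga1 (0.69 ± 0.28) and Spp1 (2.01 ± 0.17) were higher, and Mep1a (−2.84 ± 0.23) and P4hb (−1.79 ± 0.37) were lower, all with an edgeR adjusted p of at most 0.0368. In distal convoluted tubule-like cells these 6 genes passed in the same directions, together with the integrin gene Itgb1 (1.28 ± 0.27, edgeR adjusted p = 0.000266). Timp3 stood with Mep1a and P4hb among the genes lower in the loop of Henle-like and distal convoluted tubule-like cells, and Lamb1, the laminin chain, among those higher.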

How the data were processed

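Drop-seq libraries of renal cortex from 2 Akita and 2 wild-type mice were compared. The deposited files hold raw UMI counts per gene and barcode. Per the submitters' processing notes, the tools included featureCounts 1.6.0, STAR 2.5.2b and UMI-tools 0.5.3, with GRCm38 as the build and no role or order given. In each file 4 strings that were not barcodes, holding 1.08% to 1.33% of the UMIs, were left out, and 0 columns went unmapped. Library totals were 1016719 to 1303453 UMIs.

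The 7 genes, the other gene lists and the tests were chosen with earlier results of these data known. Cells were clustered with scanpy 1.11.5 and leidenalg 0.10.2 (2000 variable genes without the 7 genes and mitochondrial genes, 30 components, 15 neighbours, resolution 1). A cluster was named from at least 3 markers among its top 50 genes by fold, within the genes found in at least 25% of its cells. Clusters with markers of a second class were split once, and for clusters without a name the genes were ranked again, against named cells outside the proximal class only. No doublet caller was run.

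The replicate was the library, so UMI counts were added up over its cells, or over its cells of a class. The sums were tested by the two-sided quasi-likelihood test of edgeR 4.0.16 (R 4.3.3) after filterByExpr and TMM scaling, with Benjamini-Hochberg adjustment over all genes tested and a threshold of 0.05. Class comparisons had library as a term and used classes of at least 10 cells in every library. Sums of at least 4 cells were added later for the intercalated-like and connecting tubule-like classes, and every value of these classes comes from that fit. The script was tested on simulated data. DESeq2 1.42.0 and limma 3.58.1 (voom), other filters, factors, cell cut-offs and cluster resolutions, a replicate block and each library left out were alternatives. The labels do not say that replicate numbers mark shared days or litters. With 2 libraries a group, p-values measure only the spread between these libraries. Named were all 7 genes, the 3 genes with the most UMIs of each other list and those called between genotypes (none); list genes called between classes were named after their values were seen. Exact 95% intervals (Clopper-Pearson for shares, Poisson for levels) and the limit of 3 counts behind a 0 cover counting error only.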

Additional observations from a re-analysis of the deposited data

Results flagged for a closer look

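Of the barcodes that were not retained as cells, 6066 in the 4 libraries, 6 of the 7 genes had UMIs above the limit that a count of 0 allows (3 counts, 1.71 CPM), a signal in barcodes no comparison between classes used. Pooled over libraries, Timp3 had 116 CPM, Col4a4 112 CPM, Col4a3 96.6 CPM, Col4a2 21.7 CPM, Col4a1 21.1 CPM and Sparc 5.71 CPM there. In the retained cells they had 314, 170, 138, 58.3, 42.8 and 3.53 CPM. Fn1 had 2 UMIs. The difference between these sets of barcodes was not tested.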

How the results depend on the processing

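None of the 7 genes was called between Akita and wild type under any alternative run. Of the 7 genes, 2 were called in loop of Henle-like against proximal tubule-like cells, 5 with no filter on low counts, 1 without the shared barcodes or with each in the file with relatively fewer of its UMIs, and 1 to 3 with a library left out. In distal convoluted tubule-like cells 1 was called, 2 with no filter and 0 at Leiden resolution 0.5. In connecting tubule-like cells 0 were called (Timp3 at an unadjusted p of 0.0278), 2 with no filter, 1 at resolution 0.5 and 0 to 1 with a library left out. In intercalated-like cells 2 were called, and 1 with DESeq2, under each treatment of the shared barcodes and at resolutions 0.5 and 2 (1 to 2 with a library left out). With no filter 12%, 11.3%, 7.39% and 11.1% of all genes were called in these 4 comparisons, and the median over all genes moved to −0.80, −0.90, −1.32 and −0.73, and with RLE factors to −0.11 in the first, where Col4a4 was then called (−0.68, edgeR adjusted p = 0.0206).

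Signs turned round as follows, on the log2 scale, and the cause was not tested. Over all retained cells, Akita against wild type, Timp3 was −0.26, Col4a1 −0.39 and Col4a4 −0.26 with shared barcodes in the file with relatively fewer UMIs. Col4a2 was 0.0576 and Col4a4 −0.26 without the shared barcodes, and Col4a2 was 0.20 with each in the file with relatively more UMIs. At most 25% mitochondrial UMIs gave −0.0102 for Timp3 and −0.0717 for Col4a4. In proximal tubule-like cells, Timp3 was 0.26 with relatively more UMIs. Col4a1 was −0.44 and Col4a4 −0.33 with relatively fewer. Col4a4 was −0.30 without the shared barcodes, −0.0379 at 500 genes per cell and −0.0684 at 25% mitochondrial UMIs. In distal convoluted tubule-like cells Col4a4 was −0.32 with no filter, −0.0301 without the shared barcodes, −0.12 at 25% mitochondrial UMIs and −0.17 at resolution 2. In connecting tubule-like cells with no filter Col4a2 was −0.65 and Col4a4 −0.51. The difference of genotype effects for Col4a4 was 0.11 with relatively fewer UMIs.

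With a library left out, values over all retained cells ranged from −0.0507 to 0.0756 for Timp3, −0.59 to 0.26 for Col4a2 and −0.10 to 0.27 for Col4a4. In proximal tubule-like cells they ranged from −0.15 to 0.0304 for Timp3, −0.0467 to 0.24 for Col4a1, −0.75 to 0.0397 for Col4a2 and −0.17 to 0.27 for Col4a4. Col4a4 ranged from −0.41 to 0.29 in loop of Henle-like cells between genotypes, −0.0126 to 0.47 in distal convoluted tubule-like and −0.24 to 0.83 in connecting tubule-like cells. The difference of genotype effects ranged from −1.41 to 1.59 for Col4a3 and −0.35 to 0.0936 for Col4a4.

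A replicate block left 0 of the 7 genes called between genotypes. The deviations of same-numbered libraries correlated at −0.136, so the number is not shown to pair them. With 2 libraries a group, the crossed pairs give the same value with the sign turned (0.136). Crossing also pairs Akita replicate 2 with Wild-type replicate 1, which share barcodes, so this value cannot decide the pairing. The crossed block, added after seeing the data, called 0 of 7169 genes over all retained cells, 0 of 6117 in proximal tubule-like and 2 of 1090 in loop of Henle-like cells. The block with each shared barcode in the file with relatively more UMIs, also added later, gave 0.19 for Col4a2 over all retained cells and 0.29 for Timp3 in proximal tubule-like cells. Limma-voom was not run between classes, and 500 genes per cell gave no connecting tubule-like value. Sparc, Fn1 and, outside proximal tubule-like cells, Col4a1 were limited by depth.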

Other observations

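Timp3 and the collagen chains were detected together in single cells. Of the 1916 retained cells, 519 had a Timp3 UMI, 359 a Col4a4 UMI and 269 a Col4a3 UMI. Timp3 and Col4a4 were both found in 167 cells, Timp3 and Col4a3 in 156, and the partners Col4a3 and Col4a4 in 99. Col4a1 was found in 111 cells and Col4a2 in 141, both in 19. Deeper cells hold more UMIs of every gene, and joint detection was not tested against depth.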
